A study of Mus musculus with 14 samples.

Results

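Integrins, selectins and the proteins that tie integrins to the actin cytoskeleton were examined as a group of 41 genes, chosen by name and matched on the gene name of the count table. All 41 were present among the 55335 genes of the table. By role they comprised 6 subunits of leukocyte integrins, the alpha4 and alpha9 chains (2), 4 alpha chains of collagen receptors, 4 laminin-binding chains, 3 alpha chains that recognise the RGD motif, 5 beta chains of matrix receptors, 14 activators and adaptors of focal adhesions, and P-selectin, its ligand and ICAM-1 (3). Gene expression was measured by RNA sequencing of bone marrow cells that the labels describe as sorted endothelium, taken as negative for lineage markers and for CD45 and positive for tdTomato. Every mouse, untreated ones included, carried the endothelial reporter genotype Cdh5 Cre Rosa26 TdTomato, in which Cre under the Cdh5 promoter switches on tdTomato; the reporter then stays on in the descendants of such a cell. The 14 libraries were 4 from untreated mice, 5 from mice given total body irradiation (TBI) with 500 cGy from a caesium source, 3 from mice given 20 µCi of a non-targeted IgG radioimmunotherapy (IgG RIT) and 2 from mice given 20 µCi of a CD45-targeted radioimmunotherapy (CD45 RIT). Treated mice were harvested 8 days after treatment. The study's title names astatine-211 as its radionuclide, and the comparisons address how cells of the marrow niche differ after external and after antibody-delivered irradiation.

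Integrins are cell surface receptors built from one alpha and one beta chain. The beta2 and beta7 chains belong to leukocytes, where they bind ICAM, VCAM-1 or MAdCAM-1 and serve arrest on the vessel wall and homing, while beta1, beta3 and beta5 pair with several alpha chains to bind collagen, laminin, fibronectin and vitronectin on many adherent cells. Talin and the kindlins switch integrins to their binding state from inside the cell; kindlin-3 is the form of blood cells and kindlin-2 that of most adherent cells. The integrin-linked kinase, PINCH and a parvin form a complex under the receptor, and vinculin, paxillin, zyxin and alpha-actinin join it to actin filaments. P-selectin on activated endothelium and platelets and its ligand PSGL-1 on leukocytes carry the rolling step that precedes integrin binding.

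The libraries held between 16412779 (TBI replicate 6) and 31077588 (untreated replicate 1) counts, and 3 counts, the smallest signal treated here as detection, amounted to 0.0786 to 0.215 CPM (counts scaled to a common library size of 1e6, with TMM factors applied). Sums over lists of genes, here and below, were divided by total counts without TMM factors. They are therefore on another scale than the CPM of single genes. The factors were 1.15 to 1.23 in untreated, 0.849 to 1.19 in TBI, 0.798 to 0.876 in IgG RIT and 0.704 and 0.776 in CD45 RIT. Of 10 endothelial markers, the summed level was 78.7 to 134 CPM in untreated libraries, 10.8 to 70.7 in TBI, 13.3 to 25.3 in IgG RIT and 42.5 and 150.1 in CD45 RIT. Eng had 905 to 1003 counts in untreated and 983 and 323 in CD45 RIT, and Pecam1 had 894 to 1957 and then 6 and 4. Cdh5 itself had 0 to 6 counts in the untreated and TBI libraries and 0 in all 5 RIT libraries, and 5 of these markers (Cdh5, Tek, Tie1, Emcn and Stab2) were at 0 in both CD45 RIT libraries. The summed level of 10 pan-leukocyte markers was 2314 to 2798 CPM in untreated libraries, 279.8 to 1505 in TBI, 299.7 to 499.8 in IgG RIT and 137 to 199 in CD45 RIT. The sum of 10 marrow stromal markers was 1313 to 2844, 141 to 379, 342 to 772 and 29343 to 33974 CPM in the same order. That of 10 erythroid markers was 7894 to 14744, 25343 to 175088, 132916 to 141074 and 47436 to 191271 CPM. TBI replicate 6 stood apart from the other TBI libraries, with a pan-leukocyte sum of 279.8 CPM against 1074 to 1505 and an erythroid sum of 175088 CPM against 25343 to 44075. Its library number, like those of all RIT libraries, is 10 or higher, while the untreated and the other TBI libraries are numbered 1 to 9; numbering and RIT treatment therefore cannot be told apart in comparisons with untreated. The labels do not say that each library came from its own mouse, so p-values measure only the spread between these libraries.

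The sequence upstream of the gene start is shown for 6 members, since the results turn on leukocyte genes against widely expressed ones. They are Itgam, Itgb7 and Fermt3, of blood cells, and Fermt2, Itgb1 and Itga1, of adherent cells. Each is written 5′ to 3′ on the gene's strand, from the RefSeq promoter windows on GRCm38.p6, and stops before the first transcribed base. Capitals mark GAGGAA or its reverse complement TTCCTC, the core bound by the myeloid and lymphoid factor PU.1.
Itgam (chr7:128062390-128062639, plus strand): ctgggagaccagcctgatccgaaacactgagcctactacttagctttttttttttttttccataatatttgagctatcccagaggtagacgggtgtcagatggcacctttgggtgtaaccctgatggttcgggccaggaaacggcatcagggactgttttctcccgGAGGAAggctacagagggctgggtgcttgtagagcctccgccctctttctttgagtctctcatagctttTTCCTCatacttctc
Itgb7 (chr15:102231945-102232185, minus strand): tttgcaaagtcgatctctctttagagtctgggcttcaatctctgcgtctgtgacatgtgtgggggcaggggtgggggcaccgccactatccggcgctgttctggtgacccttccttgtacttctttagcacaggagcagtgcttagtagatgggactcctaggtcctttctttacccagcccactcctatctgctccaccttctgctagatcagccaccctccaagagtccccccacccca
Fermt3 (chr19:7019470-7019719, minus strand): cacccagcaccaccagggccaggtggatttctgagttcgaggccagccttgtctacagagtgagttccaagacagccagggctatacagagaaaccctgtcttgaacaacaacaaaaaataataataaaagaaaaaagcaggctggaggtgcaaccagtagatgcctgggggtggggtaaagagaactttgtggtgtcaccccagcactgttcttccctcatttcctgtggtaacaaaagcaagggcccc
Fermt2 (chr14:45530119-45530315, minus strand): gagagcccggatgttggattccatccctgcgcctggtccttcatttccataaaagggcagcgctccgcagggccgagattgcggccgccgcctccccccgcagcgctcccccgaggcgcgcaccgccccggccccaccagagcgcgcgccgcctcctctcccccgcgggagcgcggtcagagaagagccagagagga
Itgb1 (chr8:128685404-128685653, plus strand): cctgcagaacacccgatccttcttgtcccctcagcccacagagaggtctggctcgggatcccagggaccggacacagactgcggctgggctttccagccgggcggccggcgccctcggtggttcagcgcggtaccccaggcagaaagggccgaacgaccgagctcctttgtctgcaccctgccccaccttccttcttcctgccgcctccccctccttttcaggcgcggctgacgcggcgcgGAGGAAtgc
Itga1 (chr13:115101965-115102214, minus strand): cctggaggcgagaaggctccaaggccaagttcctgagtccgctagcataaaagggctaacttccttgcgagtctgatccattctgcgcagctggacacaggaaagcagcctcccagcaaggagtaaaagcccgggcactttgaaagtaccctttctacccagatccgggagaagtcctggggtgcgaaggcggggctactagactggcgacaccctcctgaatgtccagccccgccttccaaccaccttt
Whole windows hold 300 bases, from 250 before to 50 after the start. The motif was searched on both strands, and 28.3% of all 32851 windows held it. It was present in 11 of the 37 windows found for 31 of the members, and among those shown in Itgam, Itgb7 and Itgb1; in Itgb7 it lies beyond the printed stretch. CpG dinucleotides numbered 37 in the Fermt2 window, 27 in Itgb1, 12 in Itga1, 6 in Itgam, 5 in Itgb7 and 3 in Fermt3. The median over all windows was 7. These 6 genes were picked for display, and other members did not all divide this way. Itgax held 5 and Vcl 30, but Itga10 held 6, Itga4 10, the Itga3 windows 5 and 24, and the Parvg windows 6 and 11. The motif and CpG numbers are matches of letters and were not tested for binding.

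Of the 41 genes, 37 passed the filter on low counts and were tested. Itga7, Itgb6, Itgb8 and Fermt1, chains and a kindlin best known from muscle, epithelia or the nervous system, did not pass; their highest values in any library were 0.287, 0.419, 0.0610 and 0.555 CPM. Per kilobase of gene length, the highest mean levels in untreated libraries were those of Ilk (78.1 CPM per kb), Fermt3 (70.8), Parvg (54.8), Selplg (49.5) and Itgb1 (48.8). In CD45 RIT libraries the order of means was Ilk (201 CPM per kb), Itgb1 (197), Actn4 (104) and Itgb5 (63.8), while Parvg was at 0. The mean of Itgb5 came from unlike libraries, at 13.9 and 113.7 CPM per kb.

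**Figure D1:**
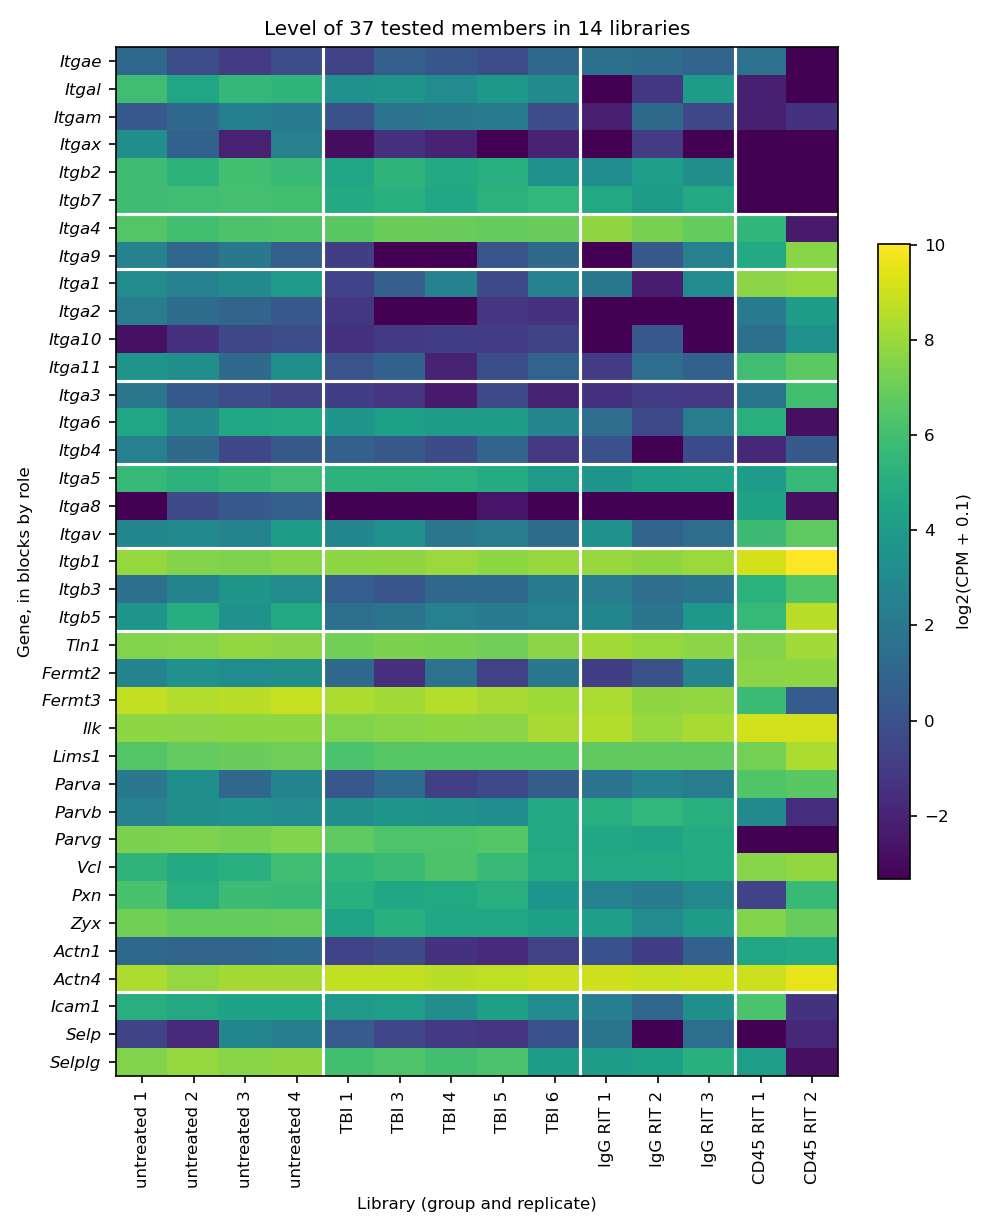
Level of the 37 tested genes (rows, in blocks by role) in the 14 libraries (columns, grouped by treatment), as log2(CPM + 0.1) by colour. Itgb2, Itgb7, Itgax and Parvg had 0 counts in the 2 CD45 RIT columns, and Itga1, Itga11 and Fermt2 are brightest there.

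After CD45 RIT the 2 sets of genes moved apart. Of the 37 tested members, 24 (64.9%) passed the test against untreated, 16 higher and 8 lower, where 33.1% of all 21509 genes tested passed (14.5% higher and 18.6% lower). The median log2 fold change of the members was 0.61, beside -0.37 over all genes tested. The libraries of the groups did not overlap for 25 members, and for 47.3% of all genes tested. Leukocyte integrin subunits fell, and chains of collagen and vitronectin receptors rose together with kindlin-2, alpha-parvin and alpha-actinin-1. In sorted bulk samples, fewer cells of a type and less RNA per cell cannot be told apart. A call here means a Benjamini-Hochberg adjusted p under 0.05 in edgeR's quasi-likelihood test, which is the test behind every adjusted p that follows.

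**Figure D2:**
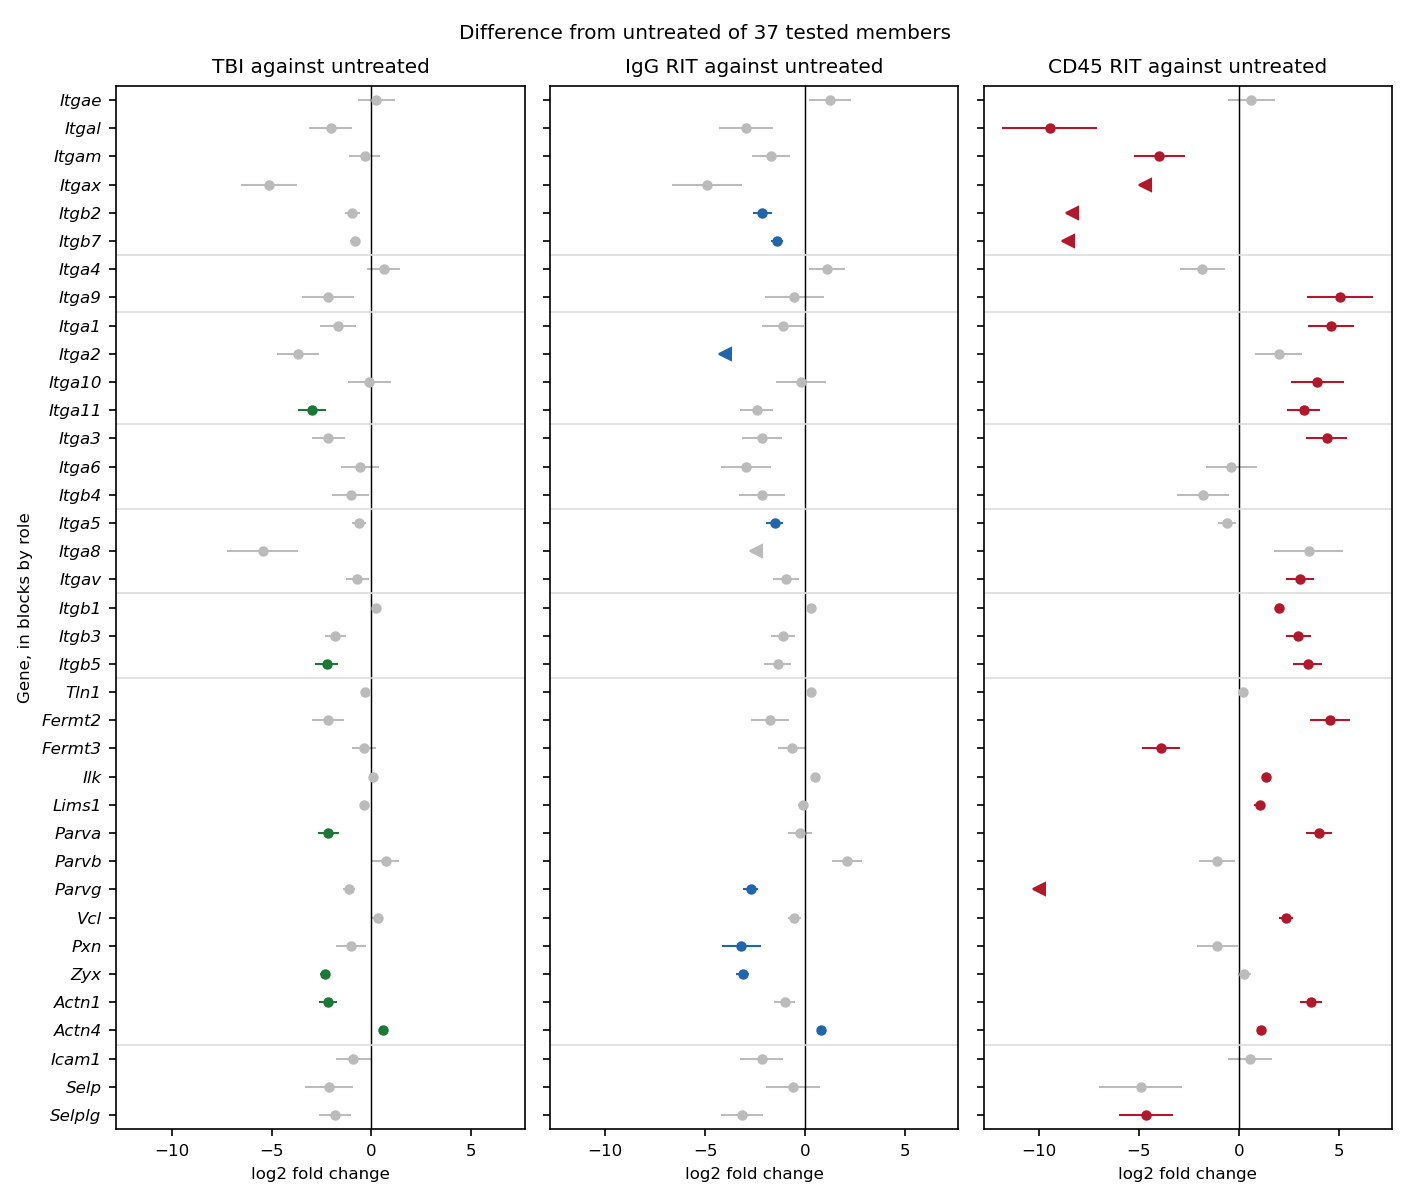
Log2 fold change against untreated of the 37 tested genes (rows) for TBI, IgG RIT and CD45 RIT (panels); points and bars are the fitted value and its SE, coloured where called and grey where not. Left-pointing triangles mark genes with 0 counts in every library of the treated group, drawn at the smallest fold the 3-count floor allows; in the CD45 RIT panel 16 genes are called to the right and 8 to the left of 0.

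Among the leukocyte integrin subunits, 5 of 6 fell after CD45 RIT, with Itgae as the exception. Itgb2 (chr10:77530252-77565708, plus strand), which encodes the beta2 chain shared by LFA-1 and Mac-1, measured 58.2, 39.6, 63.3 and 50.6 CPM in untreated libraries 1 to 4. It measured 23.9, 40.0, 28.2, 33.2 and 10.4 CPM in TBI libraries 1, 3, 4, 5 and 6, then 8.92, 17.5 and 9.62 CPM in IgG RIT, and had 0 counts in both CD45 RIT libraries. The untreated libraries were above all IgG RIT and CD45 RIT libraries, and TBI replicate 3 reached the lowest untreated value. Against untreated, the level in CD45 RIT was thus at least 323-fold lower (adjusted p = 1.12e-05).

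Itgb7 (chr15:102215995-102231944, minus strand), the beta chain of the gut-homing integrin alpha4beta7, measured 58.2, 59.6, 65.4 and 62.6 CPM in untreated, 28, 34.9, 24.7, 38.0 and 46.0 CPM in TBI and 27.0, 15.2 and 26.3 CPM in IgG RIT libraries, with 0 counts in both CD45 RIT libraries. No treated library reached the untreated range. The level after CD45 RIT was at least 376-fold lower (adjusted p = 1.38e-06). Itgal, the alpha chain of LFA-1, measured 59.7, 23.7, 47.1 and 42.5 CPM in untreated, 10.7, 12.0, 8.68, 13.7 and 7.83 in TBI, 0, 0.349 and 16.3 in IgG RIT and 0.122 and 0 in CD45 RIT. IgG RIT replicate 3 alone carried most of the signal of its group. Only 2 counts of Itgal were found over both CD45 RIT libraries, a ratio of untreated to CD45 RIT of 805 (95% interval 223 to 6650, counting error only; adjusted p = 0.00991). Itgax, the alpha chain of dendritic cells and macrophages, had 0 counts in CD45 RIT and was at least 26.0-fold lower, and Itgam, the alpha chain of Mac-1, fell by 3.98 (SE 1.29, adjusted p = 0.0331) on the log2 scale. Itgam and Itgax were low throughout, at 1.23 to 5.24 and 0.134 to 9.64 CPM in untreated libraries, and both calls were lost when either CD45 RIT library was left out. Itgae, of intraepithelial T cells, stood at 0.401 to 2.10 CPM in untreated and at 3.17 and 0 CPM in CD45 RIT, with a log2 difference of 0.61 (SE 1.17, adjusted p = 0.699).

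With genes at 0 counts set to their bounds, the median log2 fold change of the 6 leukocyte subunits after CD45 RIT was -6.52. Their summed level was 154 to 232 CPM in untreated, 57.2 to 109 in TBI, 31.1 to 45.7 in IgG RIT and 0.224 to 2.40 in CD45 RIT. This sum uses total counts without TMM factors and is on another scale than the values of single genes above. The summed pan-leukocyte markers were also lower in every treated library. Single leukocyte types did not all follow. Neutrophil and granulocyte progenitor markers summed to 10278 to 12918.5 CPM in untreated and 89.1 to 1214 in TBI libraries. The basophil, T and NK, and monocyte sums were likewise lower in all TBI libraries. B cell markers summed to 794 to 2503 CPM in untreated and 252 to 3299 in TBI libraries. The monocyte list, which holds Vcam1, summed to 173 to 247 CPM in untreated and 2333 to 2515 in CD45 RIT. Of the 10 pan-leukocyte markers, 3 were above 3 counts in both CD45 RIT libraries and 9 in at least 1. Ptprc, which encodes CD45, had 1578 to 3273 counts in the untreated libraries, 71 to 1424 in TBI, 78, 286 and 238 in IgG RIT and 1 and 662 in the CD45 RIT libraries. CD45 RIT replicate 2 thus had more Ptprc counts than any IgG RIT library. It also had 2128 counts of Lcp1 and 859 of Cd53, while the other pan-leukocyte markers had 0 to 18 counts there. The part of leukocyte content in the lower leukocyte integrins was not tested.

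**Figure D3:**
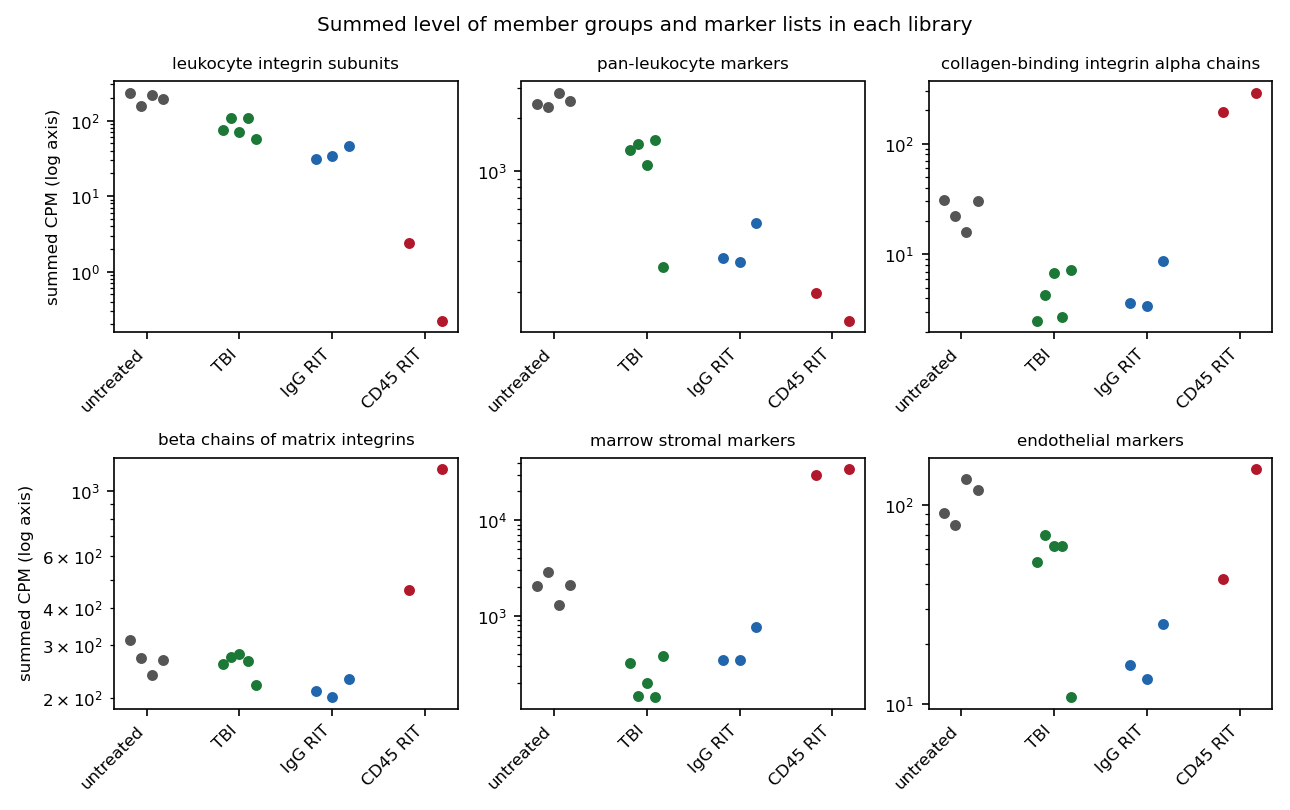
Summed CPM (log axis, each panel with its own scale) of 3 groups of members and 3 marker lists in each of the 14 libraries, by treatment. The sums use total counts without TMM factors. Leukocyte integrin subunits and pan-leukocyte markers are lowest in the CD45 RIT libraries, and collagen-binding chains, beta chains of matrix integrins and marrow stromal markers are highest there.

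The alpha4 chain, which serves VLA-4 and alpha4beta7 on leukocytes and blood progenitors, took another course. Itga4 (chr2:79255426-79333123, plus strand) measured 87.4, 61.7, 78.2 and 82.9 CPM in untreated, 96.2, 130.1, 125, 117 and 123 in TBI, 220.1, 153 and 117 in IgG RIT and 43.9 and 0.0962 CPM in CD45 RIT. All 8 TBI and IgG RIT libraries were above all untreated ones, and both CD45 RIT libraries were below them. None of these differences passed the test: the log2 values were 0.61 (SE 0.81, adjusted p = 0.797) for TBI, 1.08 (SE 0.91, adjusted p = 0.439) for IgG RIT and -1.82 (SE 1.13, adjusted p = 0.224) for CD45 RIT. Itga9, the related chain that binds tenascin-C and VCAM-1, measured 5.87, 2.10, 3.97 and 1.56 CPM in untreated, 0.460, 0, 0, 1.02 and 2.37 in TBI, 0, 1.25 and 5.68 in IgG RIT and 28.5 and 198 in CD45 RIT. Both CD45 RIT libraries were above every other library, and Itga9 rose by 5.07 (SE 1.67, adjusted p = 0.0349) on the log2 scale, a call lost without CD45 RIT replicate 2 and without each untreated library in turn.

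Itga1, Itga10 and Itga11, of the 4 collagen-binding alpha chains, rose after CD45 RIT. Itga1 (chr13:114953096-115101964, minus strand), a receptor chain for collagen IV and laminin on mesenchymal and smooth muscle cells, measured 8.59, 5.66, 8.25 and 14.3 CPM in untreated, 0.531, 1.56, 5.82, 0.746 and 5.82 in TBI, 4.11, 0.0996 and 8.67 in IgG RIT and 207 and 242 in CD45 RIT. The CD45 RIT libraries stood well above all 12 others, and the log2 rise was 4.61 (SE 1.14, adjusted p = 0.00934). Itga11, a receptor of fibrillar collagen on mesenchymal cells, measured 11.8, 9.70, 2.37 and 9.91 CPM in untreated, 0.956, 1.66, 0.143, 0.813 and 1.79 in TBI, 0.405, 2.64 and 1.68 in IgG RIT and 60.4 and 101 in CD45 RIT. It was the 1 collagen-binding chain that changed after both TBI and CD45 RIT: it fell by 2.98 (SE 0.70, adjusted p = 0.0334) and rose by 3.25 (SE 0.83, adjusted p = 0.0109) on the log2 scale. No TBI library reached the untreated range and no untreated library the CD45 RIT range. Itga10, a chain best known from cartilage, rose by 3.94 (SE 1.34, adjusted p = 0.0393), with 0.0524, 0.269, 0.634 and 0.832 CPM in untreated and 2.93 and 10.8 CPM in CD45 RIT libraries, a call lost without CD45 RIT replicate 2, without each untreated library in turn, without scaling factors, without the filter on low counts, in a fit of the 2 groups alone and with the replicate block. Itga2, the collagen receptor chain of platelets and epithelia, measured 4.72, 2.54, 1.90 and 1.11 CPM in untreated and 4.21 and 16.4 CPM in CD45 RIT, a log2 difference of 2.00 (SE 1.17, adjusted p = 0.203). None of the 3 IgG RIT libraries held a count of it, which puts its level at least 16.0-fold lower than the untreated one (adjusted p = 0.0133).

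Of the laminin-binding chains, Itga3 alone rose after CD45 RIT. It measured 0.520 to 3.77 CPM in untreated and 3.54 and 63.8 CPM in CD45 RIT libraries, a log2 difference of 4.40 (SE 1.03, adjusted p = 0.00675); replicate 1 lay within the untreated range, and the call was lost without replicate 2. Itga6, of the laminin receptors of epithelium, platelets and endothelium, measured 22.6, 7.57, 25.1 and 28.4 CPM in untreated, 12.9, 18.3, 16.0, 16.6 and 6.68 in TBI, 2.61, 0.697 and 4.78 in IgG RIT and 32.3 and 0.0481 in CD45 RIT, where the libraries lay on opposite sides of the untreated range. Itgb4, its partner in hemidesmosomes, stood at 0.634 to 5.48 CPM in untreated and 0.183 and 1.2 CPM in CD45 RIT. Neither gene passed edgeR's quasi-likelihood test in any comparison with all libraries. DESeq2 called Itga6 lower after IgG RIT, at a log2 difference from untreated of -2.77 (adjusted p = 0.0390). With 1 CD45 RIT library left out the other stands alone and is assumed to vary like the other groups, so each p of such a fit compares a single library. The log2 difference of Itga6 from IgG RIT was -5.67 (adjusted p = 0.00686) without replicate 1 and 3.37 (adjusted p = 0.00477) without replicate 2.

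Among chains of RGD receptors, Itgav, the alpha chain of vitronectin receptors, rose by 3.08 (SE 0.70, adjusted p = 0.00602) on the log2 scale after CD45 RIT, from 7.15, 8.26, 6.11 and 16.4 CPM in untreated to 55.7 and 105 CPM. Itga5, of the fibronectin receptor, measured 48.7, 37.8, 47.7 and 60.3 CPM in untreated, 39.2, 38.2, 35.9, 29.6 and 14.8 in TBI, 12.5, 18.7 and 19.6 in IgG RIT and 16.7 and 48.0 in CD45 RIT. The 3 IgG RIT libraries and TBI replicate 6 were below the other TBI and all untreated libraries. Itga5 fell by 1.52 (SE 0.42, adjusted p = 0.029) after IgG RIT, a call lost without any 1 of the IgG RIT libraries or without untreated library 1, 3 or 4. Itga8, a chain of mesenchymal cells, was found at 20.1 CPM in CD45 RIT replicate 1 and at 0.0481 CPM in replicate 2, against 0 to 1.66 CPM in untreated and 0 to 0.0678 in TBI, and at 0 in all 3 IgG RIT libraries. The mean of CD45 RIT over TBI, where 2 counts were found in all, was a ratio of 613 (95% interval 169.8 to 5064, counting error only; adjusted p = 0.00581), and the call was lost without CD45 RIT replicate 1.

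All 3 tested beta chains of matrix integrins rose after CD45 RIT. Itgb1 (chr8:128685654-128733200, plus strand), the most widely shared beta chain, measured 239, 187, 173 and 198 CPM in untreated, 214, 226, 254, 218 and 249 in TBI, 252, 223 and 261 in IgG RIT and 571 and 1033 in CD45 RIT. The first 3 groups lay between 173 and 261 CPM, and both CD45 RIT libraries were above 500 CPM. Its log2 rise was 2.01 (SE 0.21, adjusted p = 3.57e-05) after CD45 RIT, while TBI and IgG RIT differed from untreated by 0.22 (SE 0.17) and 0.30 (SE 0.19) without a call. Itgb5 (chr16:33829665-33949338, plus strand), a beta chain of vitronectin receptors, measured 12.7, 31.2, 11.6 and 27.5 CPM in untreated, 2.80, 3.35, 5.58, 4.44 and 5.67 in TBI, 6.83, 3.39 and 13.9 in IgG RIT and 49.3 and 404 in CD45 RIT. All TBI libraries were below and both CD45 RIT libraries above all untreated ones. Itgb5 fell by 2.25 (SE 0.58, adjusted p = 0.0495) after TBI and rose by 3.45 (SE 0.72, adjusted p = 0.00344) after CD45 RIT; the rise was lost without CD45 RIT replicate 2. Itgb3, the beta chain of the platelet fibrinogen receptor and of a vitronectin receptor, rose by 2.97 (SE 0.63, adjusted p = 0.00379), from 2.99, 6.29, 13.4 and 8.63 CPM in untreated to 36.9 and 85.3 CPM in CD45 RIT.

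All 10 stromal markers, Lepr, Cxcl12 and Kitl among them, were above 3 counts in every library, and their sum in CD45 RIT was 29343 and 33974 CPM where no other library exceeded 2844. In TBI the sum was 141 to 379 CPM and in IgG RIT 342 to 772 CPM, below every untreated library in both. The beta chains of matrix integrins summed to 220.1 to 280.4 CPM in TBI, 200.5 to 231.9 CPM in IgG RIT and 238.7 to 313 CPM in untreated libraries. These sums carry no TMM factors, so their differences between groups are not those of the scaled gene values. With TMM factors Itgb1 alone measured 223 to 261 CPM in IgG RIT and 173 to 239 in untreated libraries. Itga11 and Itgb5 fell after TBI, Itgb1 had a log2 difference from untreated of 0.22 (SE 0.17, adjusted p = 0.577) in TBI and 0.30 (SE 0.19, adjusted p = 0.303) in IgG RIT, and no matrix beta chain was called after IgG RIT. The part of stromal cell content in these results was not tested.

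**Figure D4:**
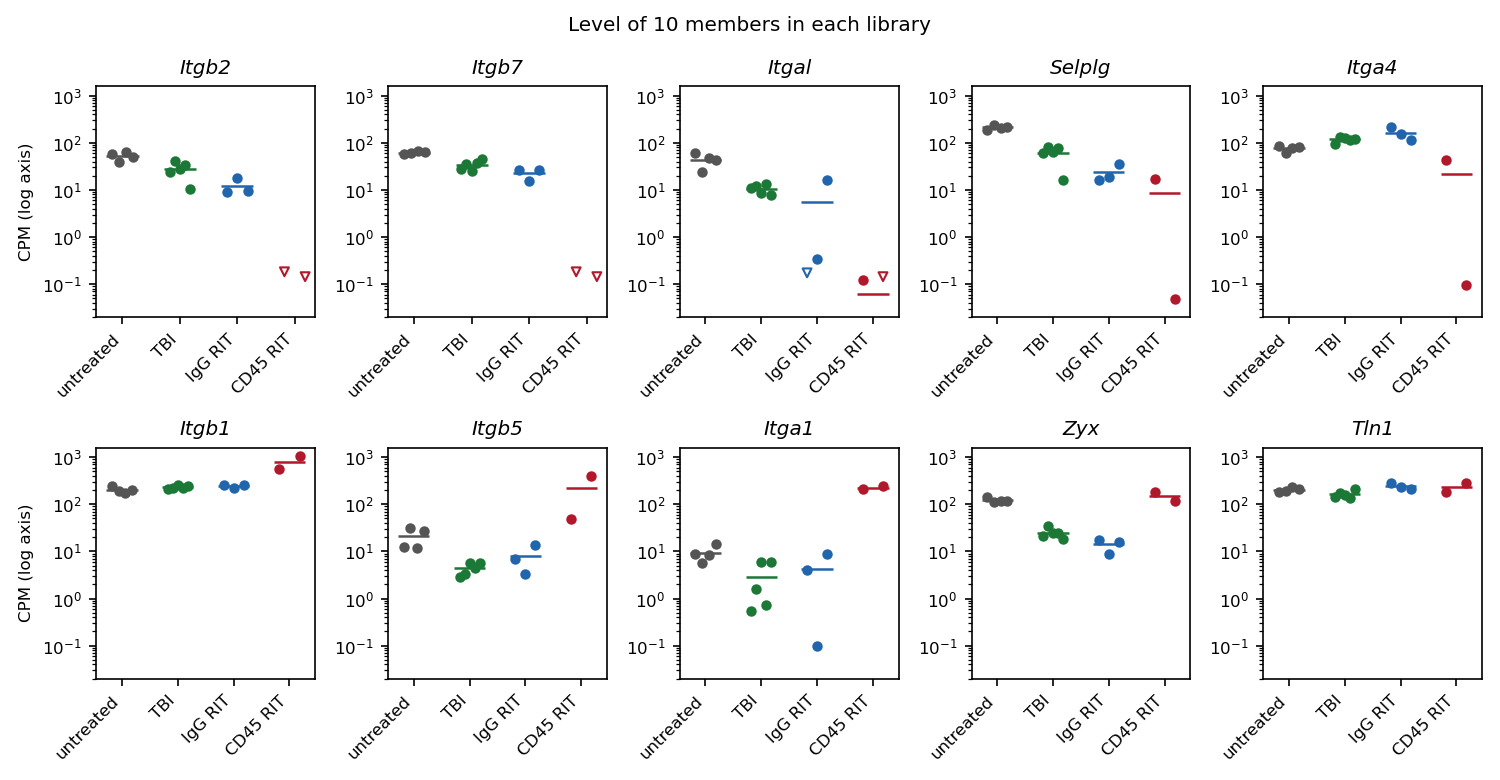
CPM (log axis) of 10 genes in each library, by treatment; lines are group means and open triangles mark libraries with 0 counts, drawn at the 3-count floor. Itgb2 and Itgb7 are at 0 counts in both CD45 RIT libraries, while Itgb1, Itgb5 and Itga1 are highest there and Zyx is lowest in TBI and IgG RIT.

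Of 13 activators and adaptors tested, 7 rose and 2 fell after CD45 RIT, where 14.5% of all genes were called higher and 18.6% lower. Talin-1 (Tln1, chr4:43531519-43562691, minus strand), which opens the integrin head, had no call in these comparisons: it measured 178, 196, 228 and 206 CPM in untreated, 145, 169, 154, 138 and 209 in TBI, 283, 237 and 210.4 in IgG RIT and 185 and 288 in CD45 RIT. Its log2 difference from untreated was -0.31 (SE 0.17) in TBI, 0.27 (SE 0.20) in IgG RIT and 0.23 (SE 0.22) in CD45 RIT. Kindlin-3 (Fermt3) measured 435, 350.0, 399 and 454 CPM in untreated, 337, 291, 367, 307 and 279 in TBI, 325, 225 and 231 in IgG RIT and 54.1 and 1.40 in CD45 RIT. Both CD45 RIT libraries were below all 12 others, and it fell by 3.88 (SE 0.96, adjusted p = 0.00911) on the log2 scale. Kindlin-2 (Fermt2) measured 6.47, 10.7, 9.01 and 9.57 CPM in untreated, 2.23, 0.242, 3.10, 0.508 and 3.95 in TBI, 0.463, 0.897 and 6.62 in IgG RIT and 211 and 214 in CD45 RIT. It rose by 4.57 (SE 1.02, adjusted p = 0.00511) after CD45 RIT; after TBI all libraries were below the untreated ones, at a log2 difference of -2.17 (SE 0.81, adjusted p = 0.164).

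The parvins link the integrin-linked kinase to actin. Gamma-parvin (Parvg, chr15:84324026-84342978, plus strand), the form of blood cells, measured 169.7, 175, 153 and 179.8 CPM in untreated, 104, 81.1, 79.6, 91.6 and 27.7 in TBI, 25.5, 22.0 and 29.5 in IgG RIT and had 0 counts in both CD45 RIT libraries. The untreated range was above that of every treatment, and TBI replicate 6 lay within the IgG RIT range. Parvg fell by 2.72 (SE 0.38, adjusted p = 0.00227) after IgG RIT and was at least 1035-fold lower after CD45 RIT (adjusted p = 3.46e-06). Alpha-parvin (Parva), the widely expressed form, measured 3.90, 9.88, 2.10 and 6.24 CPM in untreated, 1.13, 2.42, 0.477, 0.678 and 1.44 in TBI, 3.24, 5.83 and 4.73 in IgG RIT and 84.8 and 96.8 in CD45 RIT. It fell by 2.16 (SE 0.52, adjusted p = 0.0375) after TBI, where TBI replicate 3 overlapped the lowest untreated library, and rose by 4.04 (SE 0.65, adjusted p = 0.000708) after CD45 RIT. Beta-parvin (Parvb) measured 6.03, 9.85, 10.5 and 8.56 CPM in untreated, 9.38, 12.4, 11.4, 9.29 and 28.8 in TBI, 32.6, 44.7 and 34.0 in IgG RIT and 8.05 and 0.241 in CD45 RIT. The 3 IgG RIT libraries and TBI replicate 6 were the highest, and no difference of Parvb from untreated passed the test.

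Ratios of a leukocyte gene to its relative within a library do not depend on scaling. The count ratio of Itgb2 to Itgb1 was 0.212 to 0.367 in untreated, 0.0418 to 0.177 in TBI and 0.0354 to 0.0787 in IgG RIT libraries, and 0 in CD45 RIT. The ratio of Fermt3 to Fermt2 was 32.8 to 67.3 in untreated, 70.5 to 1200.1 in TBI, 34.8 to 700.5 in IgG RIT, and 0.257 and 0.00651 in CD45 RIT, so that the order of the kindlins turned in CD45 RIT alone. Parvg exceeded Parva 17.7 to 72.7 times in untreated, 19.3 to 166.8 times in TBI and 3.77 to 7.88 times in IgG RIT libraries, and had 0 counts in CD45 RIT. These ratios describe unequal change and have no test.

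**Figure D5:**
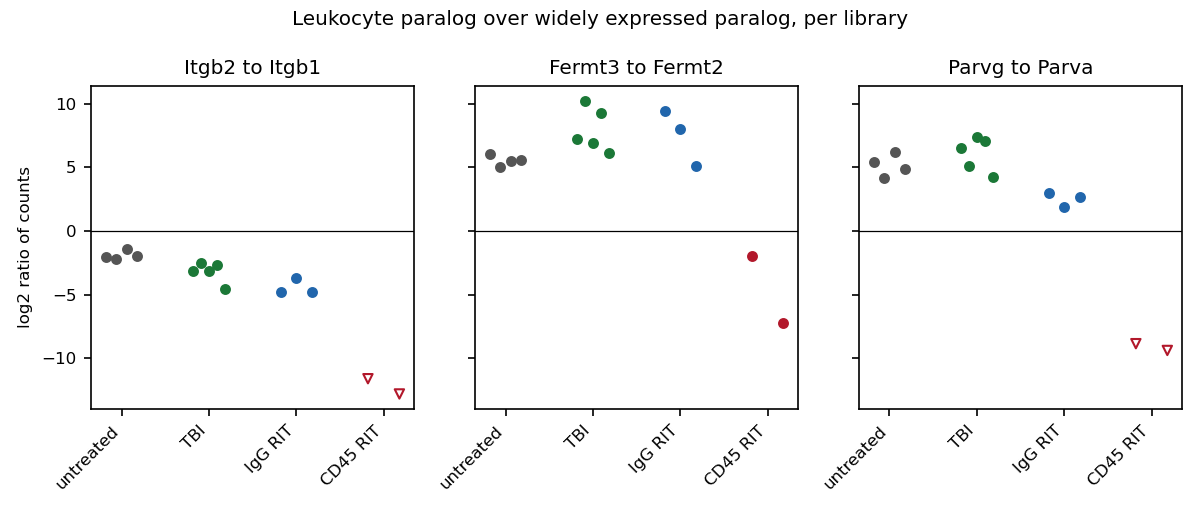
Log2 ratio of counts of a leukocyte gene to a widely expressed relative in each library, by treatment, for 3 pairs; open triangles mark 0 counts of the leukocyte gene, drawn at the ratio 3 counts would give. All 12 other libraries lie above 0 for Fermt3 to Fermt2 and for Parvg to Parva, and both CD45 RIT libraries lie below.

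Of the remaining members of the complex under the receptor, the integrin-linked kinase (Ilk) rose by 1.36 (SE 0.21, adjusted p = 0.000464) after CD45 RIT, from 217, 209.9, 219 and 212 CPM in untreated to 550.1 and 553 CPM. PINCH-1 (Lims1) rose by 1.05 (SE 0.27, adjusted p = 0.0109), with 86.2, 113, 125 and 141 CPM in untreated and 149 and 332 CPM in CD45 RIT libraries, a call lost without CD45 RIT replicate 2, without scaling factors and in a fit of the 2 groups alone. Vinculin (Vcl), which strengthens the link to actin under load, rose by 2.37 (SE 0.35, adjusted p = 0.00039), with 40.1, 28.8, 33.6 and 61.2 CPM in untreated and 189.8 and 233 CPM in CD45 RIT libraries. Alpha-actinin-1 (Actn1), an actin crosslinker, measured 2.20, 1.98, 1.97 and 2.11 CPM in untreated, 0.531, 0.726, 0.286, 0.203 and 0.503 in TBI, 0.927, 0.448 and 1.68 in IgG RIT and 22.6 and 28.5 in CD45 RIT. It fell by 2.19 (SE 0.46, adjusted p = 0.0198) after TBI and rose by 3.63 (SE 0.56, adjusted p = 0.000523) after CD45 RIT, with no overlap with untreated in either group.

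Zyxin (Zyx, chr6:42349630-42360213, plus strand), which gathers at focal adhesions under tension, fell after both treatments that did not target CD45. It measured 145, 114, 116 and 119 CPM in untreated, 21.7, 35.1, 24.4, 24.3 and 18.2 in TBI, 17.5, 8.62 and 16.1 in IgG RIT and 181 and 119 in CD45 RIT. All 8 TBI and IgG RIT libraries were below all untreated ones, and one CD45 RIT library lay above and the other within the untreated range. The log2 fall was 2.32 (SE 0.26, adjusted p = 0.00111) after TBI and 3.13 (SE 0.32, adjusted p = 0.000977) after IgG RIT, and the difference after CD45 RIT was 0.28 (SE 0.32, adjusted p = 0.51). CD45 RIT was higher than TBI by 2.60 (SE 0.29, adjusted p = 2.76e-05) and than IgG RIT by 3.41 (SE 0.35, adjusted p = 2.43e-05) in direct tests. Paxillin (Pxn), a scaffold of focal adhesions, measured 72.7, 32.5, 57.3 and 53.1 CPM in untreated, 35.3, 25.3, 27.2, 33.7 and 12.6 in TBI, 5.73, 4.48 and 7.52 in IgG RIT and 0.549 and 50.3 in CD45 RIT. It fell by 3.19 (SE 0.97, adjusted p = 0.0422) after IgG RIT, a call lost when any 1 untreated or IgG RIT library was left out, and the CD45 RIT libraries lay on opposite sides of the IgG RIT range. Alpha-actinin-4 (Actn4) measured 332, 236, 300.4 and 293 CPM in untreated, 434, 437, 402, 427 and 491 in TBI, 520.4, 479 and 511 in IgG RIT and 519 and 755 in CD45 RIT. Its log2 rise was 0.59 (SE 0.14, adjusted p = 0.0379) after TBI, 0.79 (SE 0.16) after IgG RIT and 1.13 (SE 0.18) after CD45 RIT, and each of these calls was lost without scaling factors.

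In the rolling system, the PSGL-1 gene Selplg (chr5:113818536-113832644, minus strand) measured 182, 240.4, 203 and 221 CPM in untreated, 62.0, 81.8, 63.4, 76.0 and 16.5 in TBI, 16.3, 18.9 and 35.2 in IgG RIT and 16.9 and 0.0481 in CD45 RIT. Every treated library was below every untreated one. It fell by 4.65 (SE 1.35, adjusted p = 0.0206) after CD45 RIT. The difference after TBI was -1.82 (SE 0.81, adjusted p = 0.259) and that after IgG RIT -3.17 (SE 1.04, adjusted p = 0.0557), without a call by edgeR. DESeq2 called Selplg lower after IgG RIT, at -2.96 (adjusted p = 0.00879). P-selectin (Selp) was low throughout, at 0.210 to 6.78 CPM in untreated, 0.339 to 1.31 in TBI, 0 to 3.53 in IgG RIT and 0 to 0.192 in CD45 RIT, with no call by edgeR. ICAM-1 (Icam1), the ligand of beta2 integrins on endothelium and many activated cells, measured 21.5 to 34.5 CPM in untreated, 8.69 to 19.1 in TBI and 2.19 to 9.88 in IgG RIT, and 75.8 and 0.289 CPM in the CD45 RIT libraries, which bracketed all others. In CD45 RIT against IgG RIT, DESeq2 called 1 of these 3 genes higher and 1 lower. Icam1 had no call by edgeR's quasi-likelihood test with all libraries. With a single CD45 RIT library, whose spread is again taken from the other groups, it had a log2 difference from IgG RIT of -4.30 (adjusted p = 0.00252) without replicate 1 and of 3.51 (adjusted p = 0.000762) without replicate 2.

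After TBI, 4 adaptors and 2 chains of matrix receptors changed. Against untreated 6 of 37 (16.2%) were called, Actn4 higher and Zyx, Actn1, Itga11, Itgb5 and Parva lower, where 4.31% of all genes tested were called (0.921% higher and 3.38% lower). The median log2 fold change was -1.01 over the members and -0.16 over all genes tested, and 13 members had no overlap between the groups, beside 19.1% of all genes. None of the 6 leukocyte subunits was called by edgeR's quasi-likelihood test, 3 of them had an unadjusted p under 0.05, and DESeq2 called 1, Itgax. The log2 differences of these 3 were -5.11 (SE 1.41) for Itgax, -0.96 (SE 0.37) for Itgb2 and -0.84 (SE 0.25) for Itgb7. Within the libraries numbered 1 to 9, which leaves out TBI replicate 6, 16 of 35 members were called, beside 21.8% of all genes. The 6 calls remained there and 10 were added: Itga4 higher by 0.68 (adjusted p = 0.0078), and Selplg, Itgal, Itgb2, Itgb7, Itgb3, Itga1, Itga2, Fermt2 and Parvg lower. Of the 6 calls with all libraries, that of Zyx alone held whichever library was left out.

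IgG RIT changed 8 of 37 members (21.6%) against untreated, Actn4 higher and Zyx, Pxn, Parvg, Itgb2, Itgb7, Itga5 and Itga2 lower, where 16.4% of all genes tested were called (5.75% higher and 10.7% lower). The groups did not overlap for 18 members, beside 43.1% of all genes. The medians were -1.37 over the members and -0.42 over all genes tested. The erythroid marker sum was 132916 to 141074 CPM in IgG RIT and 7894 to 14744 in untreated libraries. Its part in these calls was not tested. Itgb2 fell by 2.14 (SE 0.46, adjusted p = 0.0109), a call lost without IgG RIT replicate 1, and Itgb7 fell by 1.43 (SE 0.30, adjusted p = 0.0103). No member differed between IgG RIT and TBI by edgeR's quasi-likelihood test, where 0.242% of all genes were called (0.0697% higher and 0.172% lower). For 7 of the 37 members the groups did not overlap, a share near the 16.8% of all genes. Of the members, 11 had an unadjusted p under 0.05, and DESeq2 called 2, Parva higher and Parvg lower in IgG RIT. Without TBI replicate 6, 5 members (13.5%) were called, beside 9.44% of all genes: Tln1 and Ilk higher, and Itgb2, Vcl and Parvg lower in IgG RIT, with Parvg at -1.79 (SE 0.18, adjusted p = 0.000935). Such an absence of calls does not show that the 2 treatments act alike.

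The direct comparisons of CD45 RIT with the other treatments share its 2 libraries with the comparison above. Against IgG RIT 24 of 37 members were called, 18 higher and 6 lower, where 37.7% of all genes were called (20.2% higher and 17.5% lower), 24 had no overlap, beside 51.3% of all genes, and the medians were 1.71 over the members and -0.13 over all genes. Against TBI 25 were called, 19 higher and 6 lower, where 38.6% of all genes were called (19.6% higher and 19.0% lower), 27 had no overlap, beside 45.8%, and the medians were 1.31 and -0.39. All 4 collagen-binding chains were higher in CD45 RIT in both, but the call of Itga10 was lost in 8 of 12 alternatives against IgG RIT and in 3 of 13 against TBI, in both without CD45 RIT replicate 2. Against TBI the others were higher, Itga1 by 6.29 (SE 1.11, adjusted p = 0.000889), Itga11 by 6.23 (SE 0.84, adjusted p = 0.000125) and Itga2 by 5.68 (SE 1.19, adjusted p = 0.00394). Itgb2 was at least 166-fold lower than in TBI and at least 73.5-fold lower than in IgG RIT, and Parvg at least 469-fold and 157-fold. Parvb was lower than in IgG RIT by 3.16 (SE 1.04, adjusted p = 0.0307). Within libraries numbered 10 to 16, where 5.51% of all genes were called, 7 of the 24 calls against IgG RIT remained: Zyx, Parva, Itgb3 and Vcl higher, and Itgb2, Itgb7 and Parvg lower.

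The 2 CD45 RIT libraries shared some of these values and not others. Fermt2, Ilk, Itga1, Parva, Actn1 and Vcl differed between them by less than 1.5 times, as the values above show. Itga4, Itga6, Itga8, Icam1, Selplg, Fermt3 and Parvb were at least 10 times higher in replicate 1, and Pxn and Itga3 at least 10 times higher in replicate 2. Replicate 1 had an erythroid marker sum of 191271 CPM and replicate 2 of 47436 CPM, and replicate 2 had 2390 counts of Kdr and 1306 of Flt4, receptors of endothelial growth factors, where replicate 1 had 1 and 0. With replicate 1 left out 27 members (69.2%) were called against untreated, beside 48.0% of all genes, and with replicate 2 left out 20 (52.6%), beside 30.4%. Of the 24 calls, 11 held under every alternative that gave a value: Fermt2, Parva, Itga1, Actn1, Itgb3, Vcl, Itgb1 and Ilk higher, and Parvg, Itgb7 and Itgb2 lower.

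Other genes of the pathway were read from 3 lists. Of 23 tested matrix ligands of integrins, 17 rose and none fell after CD45 RIT, 7 fell after TBI and 6 fell after IgG RIT, where 14.5% of all genes were called higher after CD45 RIT, 3.38% lower after TBI and 10.7% lower after IgG RIT. Col4a1, a basement membrane collagen bound by alpha1beta1, rose by 5.12 (SE 0.48, adjusted p = 1.71e-05) and Fn1, the fibronectin gene, by 5.72 (SE 0.82, adjusted p = 0.00033) on the log2 scale. Tnc, the gene of the alpha9 ligand tenascin-C, fell by 2.73 (SE 0.36, adjusted p = 0.00204) after TBI. Of 40 tested further integrin and adhesome genes, 17 rose and 4 fell after CD45 RIT, beside the same 14.5% higher and 18.6% lower of all genes. Talin-2 (Tln2) was higher by 4.92 (SE 0.80, adjusted p = 0.000789) and the paxillin relative Tgfb1i1 by 4.79 (SE 0.97, adjusted p = 0.00292). Flna, the actin crosslinker filamin A, fell by 1.38 (SE 0.25, adjusted p = 0.00964) after TBI and by 2.62 (SE 0.31, adjusted p = 0.00152) after IgG RIT.

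Of 11 tested selectins and immunoglobulin-family counter-receptors, 4 rose and 4 fell after CD45 RIT, beside 14.5% and 18.6% of all genes. Of the 4 rises, that of Podxl (adjusted p = 0.0207) rests on 6 and 0 counts in CD45 RIT against 0 in all untreated libraries. Vcam1, the ligand of alpha4beta1 and alpha9beta1, had 2340, 3518, 1589 and 2727 counts in untreated, 539, 149, 164, 132 and 460 in TBI, 315, 390 and 1015 in IgG RIT and 57726 and 59214 in CD45 RIT libraries. It fell by 2.50 (SE 0.58, adjusted p = 0.0316) after TBI and rose by 5.34 (SE 0.75, adjusted p = 0.000297) after CD45 RIT. Icam2, a ligand of LFA-1, was at 0 counts after CD45 RIT, at least 285-fold lower than in the untreated libraries.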

How the data were processed

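RNA was extracted with a Qiagen kit, and libraries were made with SMART-Seq v4 and Nextera XT, per the labels' protocols. The authors deposited whole-number counts of 55335 genes in 1 table, beside identifiers, coordinates and gene lengths, and the counts show no normalization. STAR 2.7.7a, FastQC 0.11.9 and edgeR 3.36.0 are named per the submitters' processing notes. These notes name the human build hg38, but 54587 mouse gene identifiers had the coordinates of GENCODE M21, so positions are given on GRCm38. The counter and the use of strand are not given in the sources used here, so reads of genes that overlap on the other strand, as at Itga4, Fermt3, Ilk, Tln1, Vcl, Parva and Zyx, may be mixed, and Itga1, Itga10 and Itgam overlap another model on their own strand. Molecules were not tagged, so intervals and floors cover counting error only.

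Counts were analysed with edgeR 4.0.16 in R 4.3.3. Genes were kept by filterByExpr (minimum count 10, minimum total 15; 21509 genes), libraries were scaled by TMM, and a quasi-likelihood model with group as its only term was fitted to the 14 libraries together. Benjamini-Hochberg adjustment of p-values ran over all genes within each of 6 contrasts, and genes under 0.05 were called. An SE is the log2 fold change over the square root of F. CPM of genes used the TMM-scaled library size, and sums over lists the total count. Where a group had 0 counts in all libraries, the fold is a bound at 3 counts per library. Levels per kb used the deposited gene lengths. The fit was tested on simulated data. DESeq2 1.42.0, other scalings, no filter, the 2 groups alone, a replicate block, library numbers and leaving out each library were the alternatives.

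The members and lists were chosen with earlier results of these data known. Values in every library are given for called members of mean log2 CPM 3 or more, the 5 largest rises and falls in each contrast with untreated, and for Itgb1, Itgb2, Itga4, Tln1 and the paralog pairs; other members are given by range, or by library where the text turns on single libraries. Genes of the pathway lists were named from the 3 largest rises and falls per list and contrast. A result that this rule would name is not reported here. Protein sequences were not used here. TBI replicate 2 was not analysed here.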

Additional observations from a re-analysis of the deposited data

Results flagged for a closer look

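Single libraries stood far from the rest of their group in 4 of 74 groups of member values tested, where chance alone flags about 1 in 20. Only untreated and TBI were screened, since IgG RIT and CD45 RIT, with 3 and 2 libraries, were too small for the rule. Parvb was at 28.8 CPM in TBI replicate 6, where the other TBI libraries were at 9.29 to 12.4 CPM. Lims1 was at 75.2 CPM in TBI replicate 1 and at 92.1 to 93.7 CPM in the others. Itga8 was at 0.0678 CPM, 2 counts, in TBI replicate 5 and at 0 in the others. Zyx was at 144.7 CPM in untreated replicate 1 and at 114.3 to 118.8 CPM in the others.

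Members were also flagged where TBI and CD45 RIT were called in opposite directions against untreated and the direct test of CD45 RIT against TBI passed. There were 4, and since the direct test served to pick them, its p-values are no further support. The TBI call was lost in 12 of 16 alternatives for Itgb5, 10 for Parva, 8 for Itga11 and 4 for Actn1. The log2 difference of CD45 RIT from TBI was 6.23 for Itga11 (adjusted p = 0.000125), 5.70 for Itgb5 (adjusted p = 6.24e-05), 6.20 for Parva (adjusted p = 1.63e-05) and 5.81 for Actn1 (adjusted p = 8.21e-06), from edgeR's quasi-likelihood test. Both CD45 RIT libraries were above all 5 TBI libraries for each. The stromal marker sum was 29343 and 33974 CPM in these CD45 RIT libraries and 141 to 379 CPM in TBI, and its part in the result was not tested.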

How the results depend on the processing

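Of calls against untreated, 11 of 24 for CD45 RIT, 3 of 8 for IgG RIT and 1 of 6 for TBI held under every alternative that gave a value; DESeq2 gave an adjusted p for 35 of 37 members. The replicate block left 1 member and 38 genes called for TBI, 5 and 2063 for IgG RIT, 15 and 4062 for CD45 RIT against untreated, 15 members and 3756 genes for CD45 RIT against TBI, and 5098 genes against IgG RIT. The labels do not say whether replicate numbers pair the libraries. Deviations from group means correlated at -0.09 to 0.14 (median 0.02) for same-numbered libraries of different groups. For other pairs of libraries the correlations were -0.14 to 0.16 (median -0.01). With so few libraries per group these values cannot exclude a pairing. DESeq2 called 10 members and 2485 genes for TBI, 15 and 5942 for IgG RIT, and 2 and 2048 for IgG RIT against TBI. A fit of the 2 groups alone called 11 and 3251 for TBI, 16 and 6662 for IgG RIT, 3995 genes for CD45 RIT, 10 and 2217 for CD45 RIT against IgG RIT, and 2 and 850 for IgG RIT against TBI. Libraries numbered 1 to 9 gave 16 and 4005 for TBI, and those numbered 10 to 16 gave 7 and 1128 for CD45 RIT against IgG RIT. No filter left 3 members for TBI. No scaling called 203 genes for IgG RIT against TBI and turned Actn4 in CD45 RIT against TBI to -0.0045 (adjusted p = 0.988). The cause of these changes was not tested.

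Leaving out 1 library gave 1 to 5 members and 422 to 826 genes for TBI, 5 to 8 and 1775 to 2564 for IgG RIT, 20 to 27 and 5840 to 11346 for CD45 RIT, 22 to 30 and 6359 to 12085 for CD45 RIT against IgG RIT, 23 to 30 and 6981 to 12029 against TBI, and 0 to 5 and 2 to 2025 for IgG RIT against TBI. The highest counts for CD45 RIT were without its replicate 1, and 2025 was without TBI replicate 6. Without scaling the median of all genes moved by -0.12 for TBI, -0.52 for IgG RIT and -0.71 for CD45 RIT on the log2 scale. The split of higher to lower genes for CD45 RIT was 3115 to 4001 with TMM, 1796 to 6107 without scaling and 3853 to 3451 with median-of-ratios factors; for IgG RIT it was 1236 to 2300, 735 to 4326 and 1549 to 1766. For CD45 RIT against TBI it was 4225 to 4083 and, without scaling, 2994 to 5922. Members without scaling were 0 higher and 7 lower for TBI, 0 and 10 for IgG RIT and 13 and 8 for CD45 RIT. Without 1 CD45 RIT library the other stands alone and is assumed to vary like the other groups. Selp, at 0 to 0.192 CPM in CD45 RIT, had a log2 difference from untreated of -4.91 (adjusted p = 0.0845) with edgeR and of -4.69 (adjusted p = 0.0155) with DESeq2.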

Other observations

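Podxl, which encodes podocalyxin, a sialomucin of endothelium and blood progenitors that can carry selectin ligands, had 0 counts in all 4 untreated libraries, 1783, 1000, 1272, 1581 and 337 counts in TBI, 33, 39 and 95 in IgG RIT and 6 and 0 in CD45 RIT libraries. Against the 3-count floor its level was at least 507-fold higher in TBI (adjusted p = 0.00136) and at least 31.7-fold higher in IgG RIT (adjusted p = 0.00249) than in untreated, by edgeR's quasi-likelihood test. Icam4, a red cell ligand of integrins, had 2198, 2707, 2537 and 2077 counts in untreated, 3314, 4242, 2479, 3549 and 5717 in TBI, 7362, 9563 and 10278 in IgG RIT, and 3247 and 1 in the CD45 RIT libraries. Both genes belong to the list of counter-receptors, and Icam4 is named for its difference between the CD45 RIT libraries, after its values were seen. The erythroid marker sum was 7894 to 14744 CPM in untreated and 132916 to 141074 in IgG RIT libraries. Its part in the Icam4 counts was not tested.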
